A study of Mus musculus with 30 samples.

Results

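The 10 genes described here encode the cytosolic and mitochondrial heat shock chaperones Hspa8, Hspa1a, Hspa1b, Hsph1, Dnaja1, Dnajb1, Hsp90aa1, Hspd1 and Hspe1, with Hsf1, the transcription factor that induces many of them. They were taken as a list of symbols from the 3 count tables of a mouse T cell study, and all 10 were found in each, of 21983 gene symbols in the table of thymus double-positive (DP) and CD4 single-positive (SP) cells and of 46095 in each of the other tables. Bulk RNA was sequenced from T cells sorted by flow cytometry from thymus (DP, CD4 SP and CD8 SP cells) and spleen (CD4 and CD8 cells) of C57BL/6 mice. In each of the 5 populations, 3 libraries came from conditional knockout mice (CKO) of genotype CD4-Cre+ PRMT5fl/fl and 3 from wild-type mice (WT). CD4-Cre is a transgene that drives recombination in T cells from the double-positive stage on, and Prmt5 encodes an enzyme that places symmetric dimethyl marks on arginines of proteins. The WT group is labelled only as wild type, and no library carries the Cre alone, so what the Cre does and what Prmt5 loss does cannot be told apart. A lower level in bulk RNA can come from fewer cells with the transcript or from less of it per cell, and these cannot be told apart either.

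Heat shock chaperones bind unfolded or partly folded proteins and release them in cycles driven by ATP. Hsp70 proteins receive their clients from J-domain proteins and are reset by Hsp110 proteins, Hsp90 takes over clients such as kinases and steroid receptors, and Hspd1 with its lid Hspe1 forms the folding chamber of the mitochondrial matrix. Under stress, Hsf1 assembles into trimers and binds heat shock elements in the promoters of these genes, while Hspa8 and much of the Hsp90 pool are made at high levels without stress.

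The members lie on 8 mouse chromosomes, with coordinates given on GRCm38 from the GENCODE M21 annotation. Hspa8 lies at chr9:40800984-40810087, Hspa1a at chr17:34969190-34972156, Hspa1b at chr17:34956436-34959238 and Hsph1 at chr5:149614287-149636376. Dnaja1 lies at chr4:40722150-40737149, Dnajb1 at chr8:83608193-83612653, Hsp90aa1 at chr12:110690605-110702728 and Hsf1 at chr15:76477422-76501913. Hspd1 (chr1:55077835-55088243, minus strand) and Hspe1 (chr1:55088132-55091307, plus strand) are neighbours whose annotated spans overlap at their starts. The strand setting of the counting is not given in the sources used here, so reads from that overlap cannot be told apart between them. All 10 are annotated as protein coding.

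Promoter windows of RefSeq (build GRCm38.p6, 250 bases before to 50 bases after an annotated start) were found for 7 of the 10 members: Dnaja1, Dnajb1, Hspa1a, Hspa1b, Hspd1, Hspe1 and Hsph1. They were searched on both strands for the heat shock element, as a pair of its units (GAANNTTC or TTCNNGAA, each its own reverse complement) and as 3 units in a row (GAANNTTC followed by NNGAA, or TTCNNGAA followed by NNTTC, so that a run of 3 also counts as a pair). Of the 7 members, 6 held a pair in at least 1 window, as 16.97% of all 27025 genes with a window did, and 3 held a run of 3, namely Hspd1, Hspe1 and Hsph1, as 0.662% of those genes did. Counted by window, a pair occurs in 15.1% and a run of 3 in 0.603% of all 32851. The windows of Hspd1 and Hspe1 cover the same stretch on opposite strands and share 1 element of 18 bases, which begins 89 bases before the annotated start of Hspe1. Those of Hspa1a and Hspa1b are nearly identical, and each holds the same 8-base pair 104 bases before the start. The members with an element are thus not independent, unlike most genes behind the shares above. In Hsph1 an 8-base pair begins 54 bases before the start and a run of 3 begins 15 bases after it. The windows of Dnajb1 held neither form. The windows of Hspe1 and Hsph1 are shown because Hspe1 is the member called in spleen CD8 cells and Hsph1 had the fold change farthest from 0 among the members in thymus CD8 SP cells, where it was not called, and that of Hspa1b because this inducible gene was nearly silent; they are Hspe1 at chr1:55087898-55088197 (plus strand), Hsph1 at chr5:149636266-149636565 (minus strand) and Hspa1b at chr17:34959189-34959488 (minus strand). Capitals mark the element, and a match describes these letters and not binding.
Hspe1: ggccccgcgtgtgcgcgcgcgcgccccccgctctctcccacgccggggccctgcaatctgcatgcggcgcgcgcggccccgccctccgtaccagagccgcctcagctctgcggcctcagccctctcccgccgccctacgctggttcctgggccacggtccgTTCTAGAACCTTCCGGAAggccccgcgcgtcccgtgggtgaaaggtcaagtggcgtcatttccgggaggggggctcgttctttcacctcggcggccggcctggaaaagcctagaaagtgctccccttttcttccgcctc
Hsph1: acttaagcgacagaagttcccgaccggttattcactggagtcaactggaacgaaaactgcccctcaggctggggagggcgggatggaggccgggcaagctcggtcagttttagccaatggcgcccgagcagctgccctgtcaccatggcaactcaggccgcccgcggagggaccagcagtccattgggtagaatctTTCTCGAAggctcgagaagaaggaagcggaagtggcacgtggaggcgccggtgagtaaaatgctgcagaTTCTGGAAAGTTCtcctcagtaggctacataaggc
Hspa1b: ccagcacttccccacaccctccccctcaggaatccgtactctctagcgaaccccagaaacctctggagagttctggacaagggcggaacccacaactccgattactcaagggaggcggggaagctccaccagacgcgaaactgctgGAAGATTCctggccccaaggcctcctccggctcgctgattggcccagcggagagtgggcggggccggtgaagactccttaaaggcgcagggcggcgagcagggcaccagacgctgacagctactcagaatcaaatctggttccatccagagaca

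The 30 libraries held 11865646 to 35353441 counts, and levels are given as CPM, the count scaled to a common library total after TMM normalization within a table. Prmt5 (chr14:54507187-54517525) was counted over all its exons, including any outside the deleted part. Its mean was 30.4 CPM in CKO and 64.9 CPM in WT libraries of DP cells, 31.4 CPM in CKO and 62.8 CPM in WT libraries of thymus CD4 SP cells, and 116 CPM in CKO and 144 CPM in WT libraries of thymus CD8 SP cells. In the spleen it was 22.3 CPM in CKO and 43.7 CPM in WT libraries of CD4 cells, and 35.5 CPM in CKO and 65.1 CPM in WT libraries of CD8 cells. The libraries did not overlap between the genotypes in any population, but in thymus CD4 SP its difference did not pass the adjusted threshold (edgeR adjusted p = 0.958). There Prmt5 had 43.3, 26.0 and 25.0 CPM in CKO libraries 14, 17 and 23, against 56.9, 63.7 and 67.9 CPM in WT libraries 15, 18 and 24, so that CKO 14 lay nearest to WT. The 10 DP-stage markers summed to 11422 to 13807 CPM in DP libraries, and Rag1, Rag2 and Ptcra among them were listed at 0 in WT spleen cells. In thymus CD4 SP they summed to 11117, 1645 and 4909 CPM in CKO 14, 17 and 23, against 4791 to 7467 CPM in WT. In the libraries labelled thymus CD8 SP they summed to 3645 to 4081 CPM in CKO and 3501 to 3706 CPM in WT, above the sum of the 8 mature SP markers in every library, whereas in spleen CD8 cells the DP-stage sum lay below the mature sum in every library (1973 to 2450 CPM against 3510 to 3605 CPM in CKO, and 1984 to 2281 CPM against 4396 to 4613 CPM in WT). The DP-stage list holds Cd4, Cd8a and Cd8b1, which SP cells also express, and which thymus CD8 cells the sort took up was not tested. By Xist and Ddx3y, the thymus CD8 SP libraries CKO 2 and CKO 3 came from females and the other 4 from males. Sex and genotype are thus partly mixed there, whereas all spleen libraries were female. For DP and thymus CD4 SP cells no Xist value was available. There Ddx3y was 153 and 212 CPM in CKO 17, and 161 and 165 CPM in WT 18. The other DP and thymus CD4 SP libraries had at most 8.99 CPM of Ddx3y, so each group held 1 library with a male level.

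**Figure D1:**
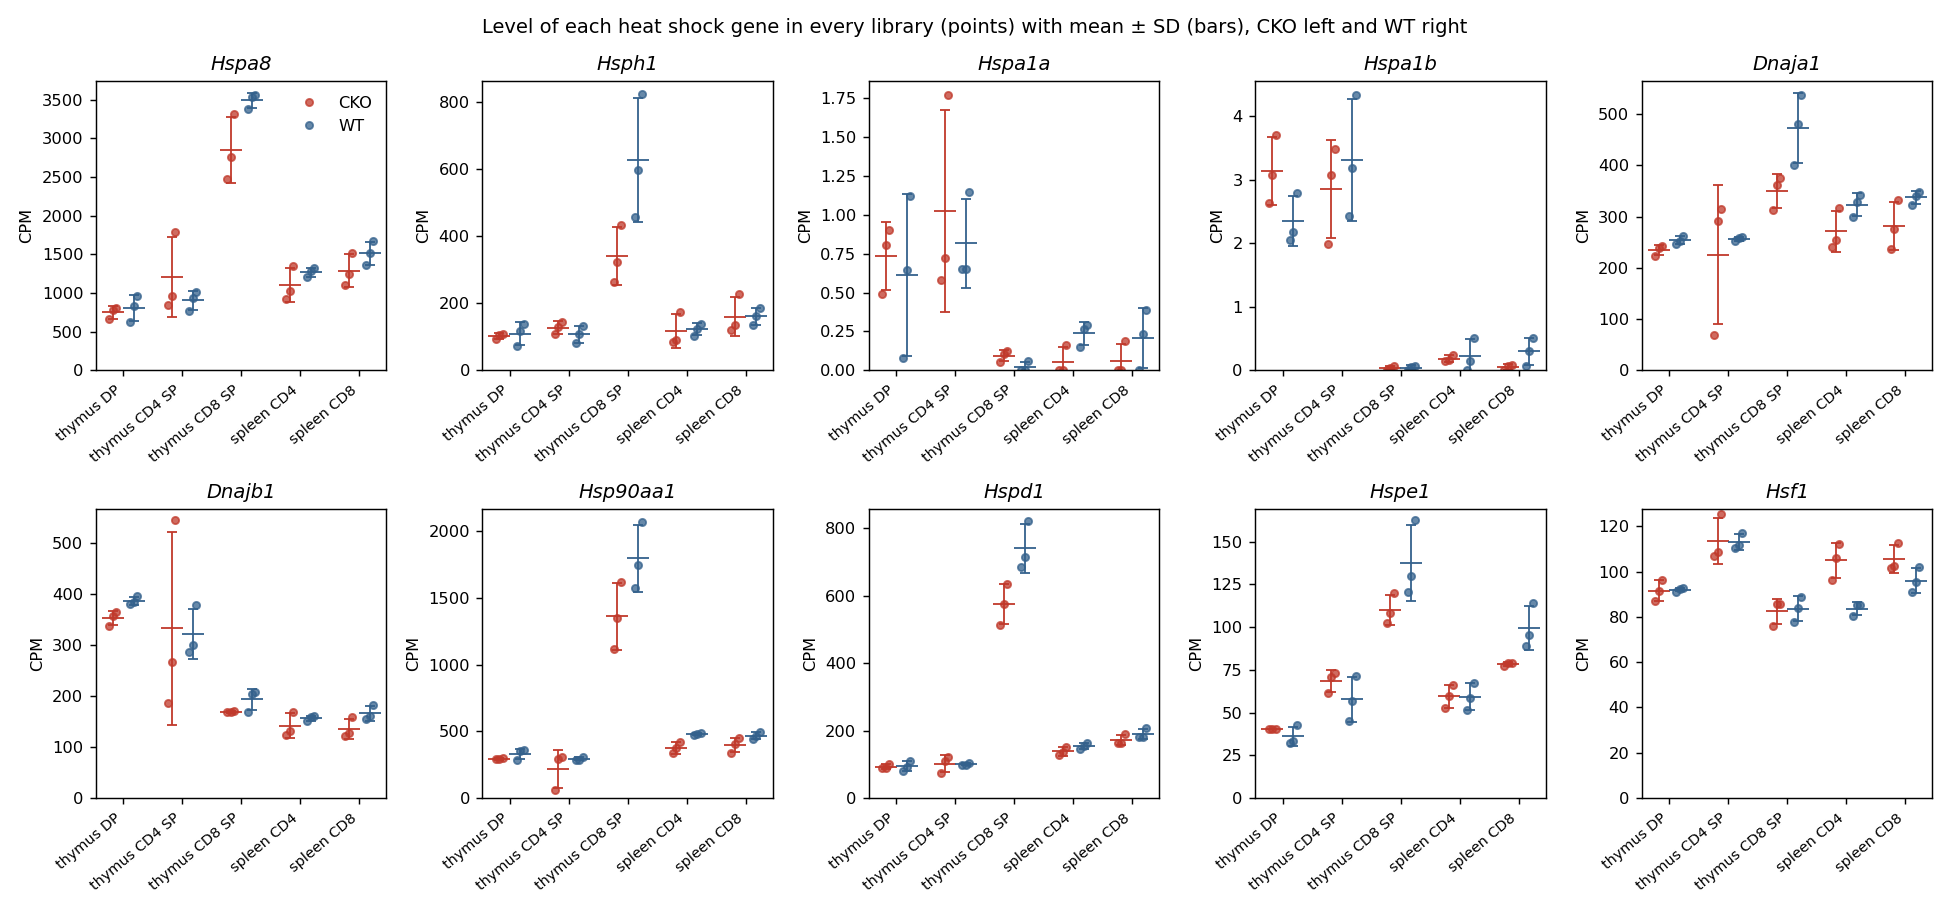
Level of the 10 genes in CPM (vertical axes, starting at 0) in each of the 30 libraries, by population; points are libraries, bars the mean ± SD of 3, CKO left (red) and WT right (blue). Thymus DP and CD4 SP, thymus CD8 SP, and the spleen populations come from 3 tables scaled separately, so heights are comparable only within a table. Hspa1a and Hspa1b stay below 5 CPM in every library, and the thymus CD4 SP library CKO 14 stands apart in Hspa8, Dnajb1, Dnaja1 and Hsp90aa1.

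Among the members, Hspa8, the constitutive Hsp70, was the most abundant per kilobase of exon in all 10 groups. On that scale (mean CPM per kilobase of the merged exons) its level in WT libraries was 812 for thymus CD8 SP, 295 for spleen CD4, 352 for spleen CD8, 187 for DP and 210 for thymus CD4 SP cells. Levels from different tables were scaled separately, and no test was made across them. Hsp90aa1, the inducible cytosolic Hsp90, came next in spleen and in thymus CD8 SP cells, at 457 in thymus CD8 SP WT, 122 in spleen CD4 WT and 119 in spleen CD8 WT libraries. In DP and thymus CD4 SP cells the J-domain protein gene Dnajb1 held that place, at 120 and 100 in WT libraries, and Hsp90aa1 followed at 84.1 and 74.8. Hsf1 lay between 11.8 and 15.9 in the 5 WT groups, and was 8th in 4 of them. It was 7th in thymus CD4 SP, where Hsph1 lay at 14.7 ± 3.55 (SD, n = 3) and did not differ from it beyond that spread. These ranks depend on the length used. The merged exons of Hsf1 hold 7099 bases and its transcript 2104, against 7266 and 3802 for Hsph1.

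The stress-inducible pair Hspa1a and Hspa1b was nearly silent in all populations. In thymus CD8 SP cells neither gene had more than 4 counts in any library, and in spleen cells neither had more than 14. In DP and thymus CD4 SP cells Hspa1b had 1.99 to 4.34 CPM and Hspa1a 0.0763 to 1.77 CPM, with CKO and WT libraries overlapping. The genes share 58.8% and 62.3% of their 50-base stretches with each other, so the split of their reads is uncertain. Both passed the filter on low counts only in the DP and thymus CD4 SP table, which leaves 8 members tested in the other populations.

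In thymus CD8 SP cells the chaperones leaned lower in CKO libraries, led in fold change by Hsph1, Dnaja1 and Hsp90aa1, although no member passed the adjusted threshold. Fitted log2 fold changes, CKO over WT, were below 0 for all 8 tested members, where 50.8% of all 14911 genes were below 0. Their median was −0.35, against −0.00 over all genes. The edgeR quasi-likelihood test with Benjamini-Hochberg adjustment called 0 of the 8, where it called 0.0805% of genes lower and 0.0335% higher, and 7 had an unadjusted p under 0.05 on the lower side, where 5.37% of genes did. DESeq2 called 1, Hspd1, where it called 0.838% of genes lower and 0.570% higher.

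Hsph1, the Hsp110 that resets Hsp70, had the largest log2 fold change of the 8. It had 263, 322 and 433 CPM in CKO libraries 1, 2 and 3, against 823, 596 and 458 CPM in WT libraries 1, 2 and 3. Each CKO library was lower than each WT library, with the WT libraries spread widely. The log2 fold change was −0.89 ± 0.20 (SE, adjusted p = 0.131), and −0.64 without WT 1, the highest library.

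Hspa8 had 2481, 2758 and 3311 CPM in CKO libraries 1, 2 and 3, against 3566, 3537 and 3380 CPM in the WT libraries. The groups did not overlap, but CKO 3 came close to WT 3. The log2 fold change was −0.30 ± 0.08 (adjusted p = 0.211). Without CKO 3 it was −0.42 and passed (adjusted p = 0.0110). Reads of Hspa8 are hard to place, since 73.2% of its 50-base stretches also occur in transcripts of 11 other annotated genes.

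Of the J-domain proteins, which hand clients to Hsp70, Dnaja1 had 312, 361 and 376 CPM in CKO libraries 1, 2 and 3, against 536, 481 and 400 CPM in the WT libraries. Dnajb1 had 171, 168 and 168 CPM in the CKO libraries, against 204, 207 and 169 CPM in the WT libraries. The groups of Dnaja1 did not overlap, whereas for Dnajb1 WT 3 lay among the CKO libraries. The log2 fold changes were −0.44 ± 0.09 for Dnaja1 (adjusted p = 0.118) and −0.20 ± 0.07 for Dnajb1 (adjusted p = 0.322).

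Hsp90aa1 had 1119, 1353 and 1619 CPM in CKO libraries 1, 2 and 3, against 2069, 1745 and 1575 CPM in the WT libraries. CKO 3 lay above WT 3, so the groups overlapped. The log2 fold change was −0.40 ± 0.12 (adjusted p = 0.261).

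The mitochondrial pair had fold changes of the same sign. Hspd1, the chamber subunit, had 515, 576 and 634 CPM in CKO libraries 1, 2 and 3, against 821, 716 and 684 CPM in the WT libraries. Hspe1, the lid, had 102, 108 and 120 CPM in the CKO libraries, against 163, 130 and 120 CPM in the WT libraries. Neither gene overlapped between the genotypes, although Hspe1 of CKO 3 and WT 3 were nearly equal. The log2 fold changes were −0.37 ± 0.08 for Hspd1 (edgeR adjusted p = 0.118, DESeq2 adjusted p = 1.47e-04) and −0.33 ± 0.10 for Hspe1 (edgeR adjusted p = 0.262).

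Hsf1 did not separate the genotypes in these cells. It had 85.7, 76.2 and 85.6 CPM in CKO libraries 1, 2 and 3, against 88.9, 77.9 and 84.0 CPM in the WT libraries. The groups overlapped, and the log2 fold change was −0.02 with a 95% interval of −0.17 to 0.12.

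Of the 8 members, 5 lay below in all CKO libraries without overlap, where 7.68% of all genes did. Over the 7 chaperones, the mean log2 ratio to the WT mean was −0.59, −0.43 and −0.24 in CKO 1, 2 and 3, and 0.18, −0.01 and −0.20 in WT 1, 2 and 3. The library CKO 1, the only male one of its group, was the lowest of the 6 in each of the 7 but Dnajb1. With sex as a covariate, the genotype comparison rests on CKO 1 alone against the WT libraries, since CKO 2 and CKO 3 are the only females. Hsph1 was at −1.25 in that fit, which cannot tell the part of sex from that of genotype. Summed markers of stage and of division also differed between the genotypes. The 8 mature SP markers summed to 894 to 922 CPM in CKO and 999 to 1114 CPM in WT libraries, none at 0. The 10 dividing cell markers summed to 5628 to 5868 CPM in CKO and 5009 to 5535 CPM in WT libraries, none at 0. Neither list had a gene called by edgeR, with median log2 fold changes of −0.18 for the mature SP and 0.11 for the dividing cell markers. Their part in the chaperone values was not tested.

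**Figure D2:**
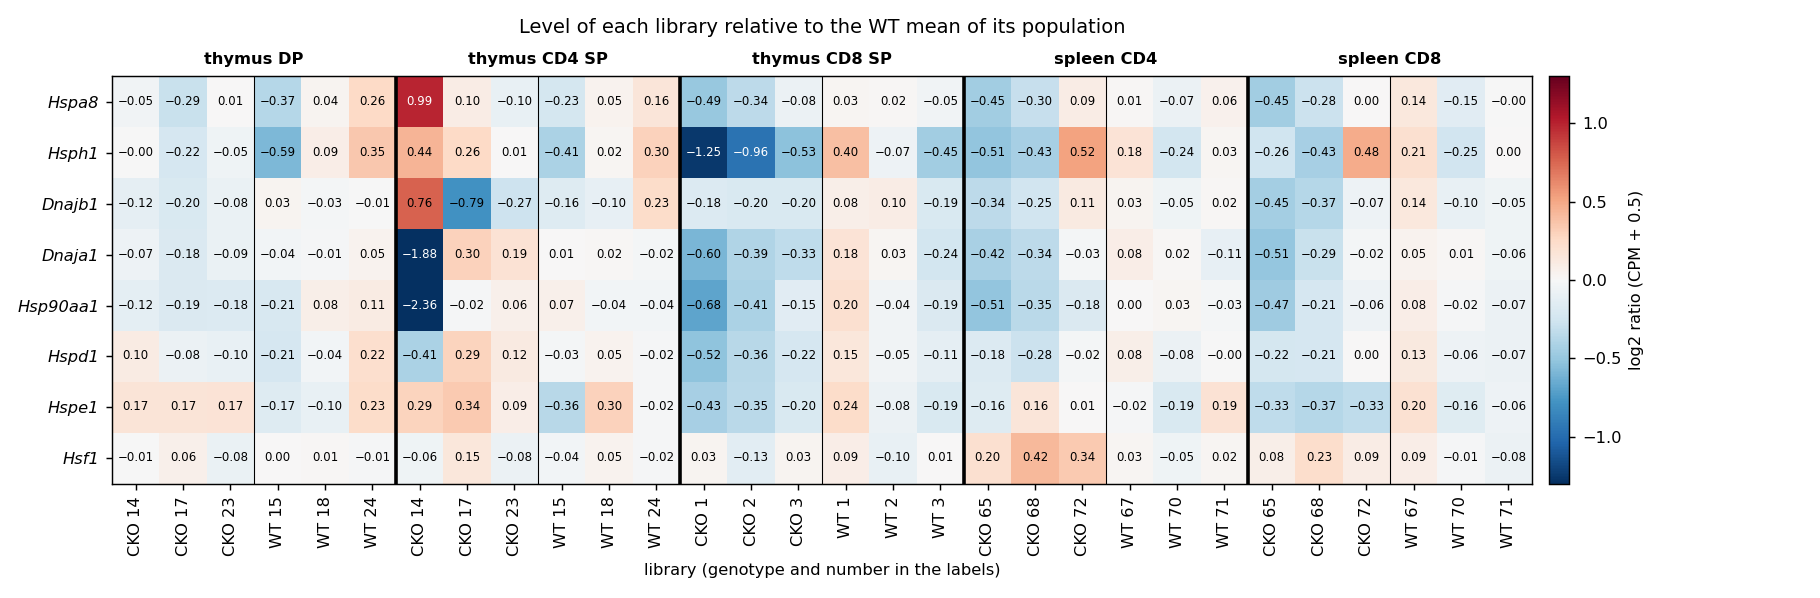
Log2 ratio of each library to the WT mean of its population (CPM + 0.5) for the 8 well-counted members, libraries in columns with CKO left of WT in each population, colour clipped at the ends of the scale and the value printed in each cell. In thymus CD8 SP the 3 CKO columns are blue for the 7 chaperones and near 0 for Hsf1, and in both spleen populations the column CKO 72 is close to 0 for most chaperones where CKO 65 and CKO 68 are blue.

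Genes that work with the members in thymus CD8 SP cells were also counted. Of 20 tested Hsp70 and Hsp90 cochaperones, 0 were called by edgeR, 8 had an unadjusted p under 0.05 on the lower side and 2 on the higher side, and their median log2 fold change was −0.12. Of the 10 other Hsp70, Hsp110 and Hsp90 family genes, 0 were called and 3 had an unadjusted p under 0.05, all on the lower side. Of 14 tested genes of the cytosolic chaperonin TRiC and prefoldin, 0 were called and 4 had an unadjusted p under 0.05, on the lower side. The 10 genes of mitochondrial protein quality control, which share a compartment with Hspd1 and Hspe1, had a median of 0.01, with 0 called and 1 at an unadjusted p under 0.05.

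In spleen CD4 cells, Hsp90aa1 fell and Hsf1 rose in CKO mice, while the other 6 tested members did not pass. That is 1 member in each direction, beside 5.63% of all 14292 genes called lower and 8.53% called higher. The median of the 8 was −0.15, against −0.01 over all genes, and 2 were lower and 1 higher at an unadjusted p under 0.05, where 12.9% of genes were lower and 15.7% higher.

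Hsp90aa1 had 334, 375 and 421 CPM in CKO libraries 65, 68 and 72, against 479, 487 and 469 CPM in WT libraries 67, 70 and 71. The groups did not overlap. The log2 fold change was −0.34 ± 0.08 (edgeR adjusted p = 0.0144), and −0.33 with an adjusted p of 0.0617 without WT 70.

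Hsf1 had 96.5, 112 and 106 CPM in CKO libraries 65, 68 and 72, against 85.4, 80.6 and 85.2 CPM in WT libraries 67, 70 and 71. Each CKO library was higher than each WT library, and the WT libraries were close together. The log2 fold change was 0.33 ± 0.07 (edgeR adjusted p = 0.00957), and 0.30 with an adjusted p of 0.0547 without WT 70.

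In the Hsp70 machinery of spleen CD4 cells the library CKO 72 stood apart. Hsph1 had 85.4, 90.1 and 175 CPM in CKO libraries 65, 68 and 72, against 138, 103 and 124 CPM in WT libraries 67, 70 and 71. Hspa8 had 926, 1031 and 1354 CPM in the CKO libraries, against 1279, 1207 and 1323 CPM in the WT libraries. For both genes CKO 72 lay above every WT library and the other CKO libraries lay below all of them.

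The log2 fold changes over all 6 libraries were −0.06 ± 0.22 for Hsph1 (adjusted p = 0.895) and −0.20 ± 0.11 for Hspa8 (adjusted p = 0.279). Dnaja1 was at −0.25 (adjusted p = 0.108) and Dnajb1 at −0.14 (adjusted p = 0.393). Without CKO 72, 5 members were called lower, in a fit that called 3.57% of 14639 genes lower: Hsph1 at −0.47 (adjusted p = 0.0263), Hspa8 at −0.37 (adjusted p = 0.0208), Dnaja1 at −0.38 (adjusted p = 0.0178), Dnajb1 at −0.29 (adjusted p = 0.0369) and Hsp90aa1 at −0.43 (adjusted p = 0.00858). Hsf1 stayed called higher without it, at 0.32 (adjusted p = 0.0381).

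The mitochondrial pair did not pass in spleen CD4 cells. Hspd1 had 136, 127 and 151 CPM in CKO libraries 65, 68 and 72, against 162, 146 and 154 CPM in the WT libraries. Hspe1 had 52.8, 66.3 and 59.6 CPM in the CKO libraries, against 58.4, 51.7 and 67.4 CPM in the WT libraries. The groups overlapped for both, with log2 fold changes of −0.15 for Hspd1 (95% interval −0.32 to 0.01) and 0.01 for Hspe1 (95% interval −0.22 to 0.24).

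Spleen CD8 cells gave 1 call among the 8 tested members, Hspe1, which fell, beside 6.22% of all 13917 genes called lower and 9.83% called higher. Hspe1 had 79.0, 77.0 and 78.7 CPM in CKO libraries 65, 68 and 72, against 114, 88.9 and 95.2 CPM in WT libraries 67, 70 and 71. The CKO libraries lay close together and below every WT library. The log2 fold change was −0.34 ± 0.09 (edgeR adjusted p = 0.0314). The call rested on single libraries: the adjusted p was 0.101 without WT 67, where the fold change was −0.23, 0.0679 without WT 71, 0.0654 without CKO 68 and 0.0782 without CKO 72.

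The other chaperones of spleen CD8 cells did not pass. Their log2 fold changes were −0.28 for Dnajb1 (adjusted p = 0.102), −0.25 for Dnaja1 (adjusted p = 0.147), −0.23 for Hsp90aa1 (adjusted p = 0.147), −0.22 for Hspa8 (adjusted p = 0.209), −0.13 for Hspd1 (adjusted p = 0.351) and −0.00 for Hsph1 (adjusted p = 0.997). In all, 7 of the 8 members had a fold change below 0, where 51.6% of genes did, and 4 had an unadjusted p under 0.05 on the lower side, where 13.7% did. Hsf1 was at 0.14 ± 0.08 (adjusted p = 0.235), with overlapping groups.

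CKO 72 stood apart in spleen CD8 cells as well. Hsph1 had 135, 120 and 226 CPM in CKO libraries 65, 68 and 72, against 187, 136 and 162 CPM in WT libraries 67, 70 and 71. Hspa8 had 1106, 1248 and 1516 CPM in the CKO libraries, against 1666, 1368 and 1512 CPM in the WT libraries. The mean log2 ratio of the 7 chaperones to the WT mean was −0.38, −0.31 and −0.00 for CKO libraries 65, 68 and 72, and lay between −0.10 and 0.13 for the WT libraries. In spleen CD4 cells it was −0.37, −0.26 and 0.07 in CKO 65, 68 and 72, against −0.08 to 0.05 in the WT libraries. Without CKO 72, 3 members of spleen CD8 cells were called lower, where 3.72% of 14280 genes were, namely Hspa8 at −0.36 (adjusted p = 0.0402), Dnaja1 at −0.39 (adjusted p = 0.0214) and Dnajb1 at −0.41 (adjusted p = 0.0214).

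**Figure D3:**
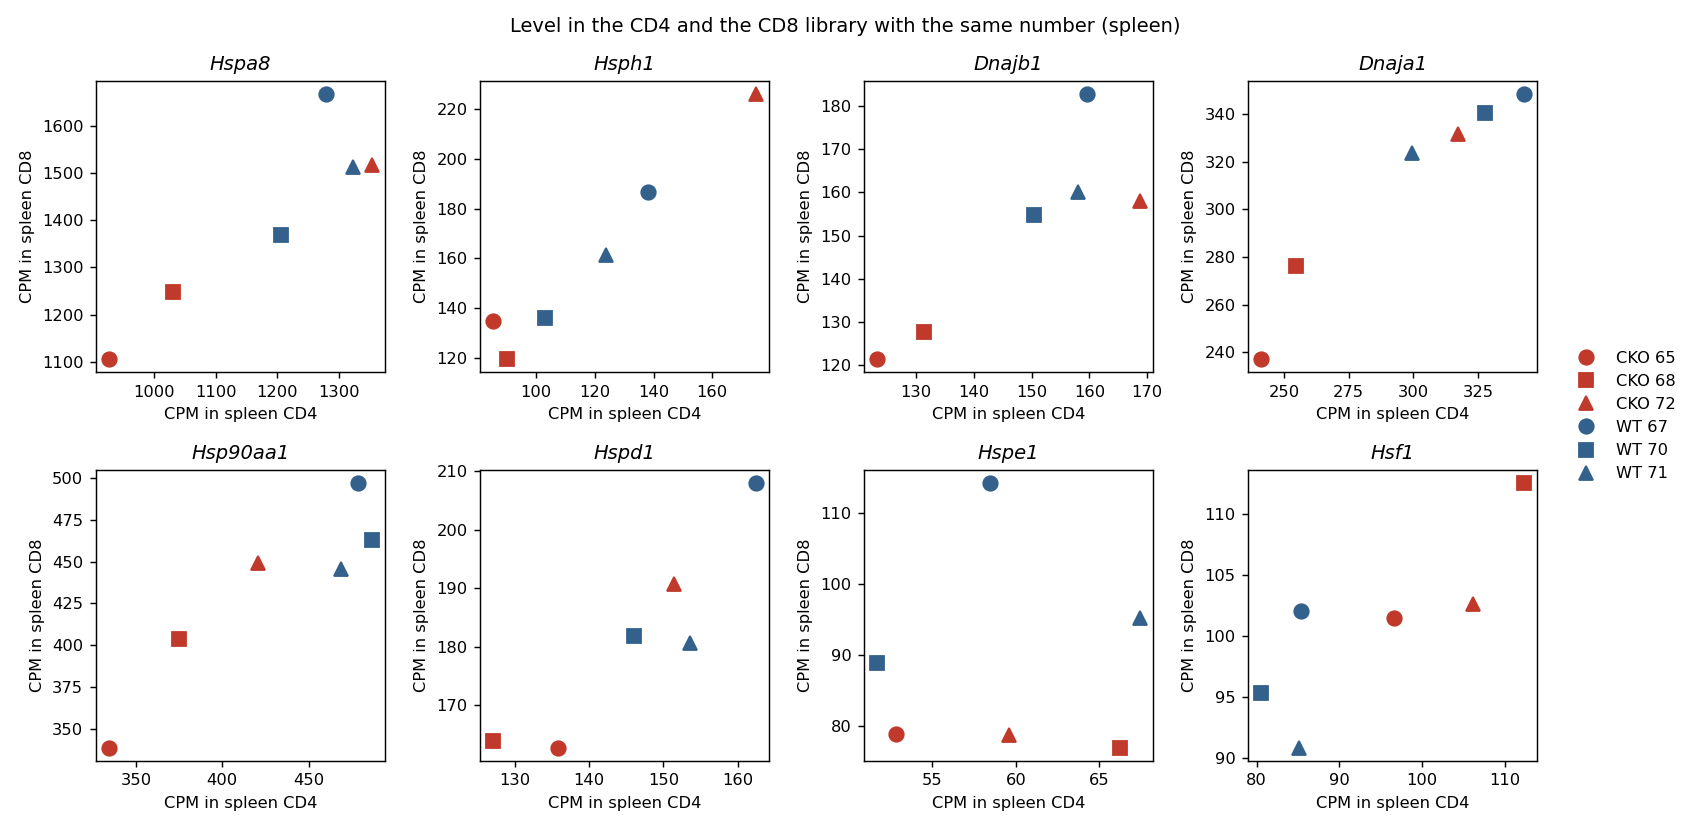
Level in CPM of 8 members in the spleen CD4 library (horizontal axes) and the spleen CD8 library (vertical axes) that carry the same number, for 3 CKO numbers (red) and 3 WT numbers (blue); axes do not start at 0. CKO 72 lies among or above the WT points for Hsph1, Hspa8 and Dnajb1, and CKO 65 is the lowest or next to the lowest point for all chaperones but Hspe1.

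No genotype effect on a member was shown to differ between the spleen populations. In the test of the difference over 12 libraries (CD8 effect minus CD4 effect), edgeR and DESeq2 each called 0 of the 8 members. Of 14958 genes, edgeR called 1.81% higher and 0.749% lower, and DESeq2 2.87% higher and 1.38% lower. With edgeR, 1 member had an unadjusted p under 0.05, where 12.4% of genes did. That member was Hspe1, whose difference was −0.35 ± 0.15 on the log2 scale (adjusted p = 0.345). For Hsf1 it was −0.19 ± 0.10 (adjusted p = 0.487).

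Around the members, spleen CD4 cells had 2 of 20 tested Hsp70 and Hsp90 cochaperones called lower and 3 called higher. Bag3, which links Hsp70 to autophagy and is a known Hsf1 target, fell by 0.96 ± 0.16 on the log2 scale (adjusted p = 0.00214). Stub1, a ubiquitin ligase for chaperone clients, rose by 0.45 ± 0.07 (adjusted p = 0.00221), and Ahsa2, a relative of the Hsp90 activator Ahsa1, by 0.35 ± 0.09 (adjusted p = 0.0206). Hsp90ab1, the constitutive partner of Hsp90aa1, fell by 0.42 ± 0.09 (adjusted p = 0.00836), the only call among 9 tested genes of the other Hsp70, Hsp110 and Hsp90 family.

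Among 16 J-domain genes other than the members, spleen CD4 cells had 1 called lower and 1 called higher. Dnaja4 fell by 0.62 ± 0.11 (adjusted p = 0.00252) and Dnajc7, which binds both Hsp70 and Hsp90, rose by 0.26 ± 0.06 (adjusted p = 0.0145). Of 10 genes of mitochondrial protein quality control, 2 rose, namely the inner membrane protease Yme1l1 by 0.46 ± 0.06 (adjusted p = 6.99e-04) and Timm44, which tethers Hsp70 at the import channel, by 0.35 ± 0.07 (adjusted p = 0.00681).

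In spleen CD8 cells, 2 of 20 cochaperones were called lower and 0 higher. They were Fkbp5, a glucocorticoid-induced Hsp90 cochaperone, at −2.35 ± 0.59 with overlapping groups (adjusted p = 0.0218), and Bag5, a nucleotide exchange factor of Hsp70, at −0.37 ± 0.10 (adjusted p = 0.0314). Among 14 genes of TRiC and prefoldin, 2 fell, Pfdn5 by 0.29 ± 0.07 (adjusted p = 0.0182) and Cct5 by 0.26 ± 0.07 (adjusted p = 0.0336). Of 3 tested genes listed with the heat shock factors, Hsf4, a relative of Hsf1 best known from the lens, rose by 1.37 ± 0.20 (adjusted p = 0.00128). Yme1l1 and Dnajc7 rose here too, by 0.41 ± 0.06 (adjusted p = 0.00178) and 0.25 ± 0.06 (adjusted p = 0.0193). Of the 16 other J-domain genes, 1 was called lower as well, and 12 had a fold change below 0. Of the 10 genes of mitochondrial protein quality control, 1 was called lower and 4 had a fold change below 0.

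Markers of other cells and states moved with genotype in the spleen. The 12 myeloid markers summed to 127 to 275 CPM in CKO and 72.9 to 106 CPM in WT libraries of CD4 cells, and to 44.6 to 71.3 CPM in CKO and 22.4 to 32.7 CPM in WT libraries of CD8 cells, where S100a9 was listed at 0 in WT. Of 10 tested myeloid markers, 10 were called higher in CD4 cells and 4 in CD8 cells. The 10 effector T cell markers summed to 1104 to 1681 CPM in CKO and 491 to 682 CPM in WT libraries of CD8 cells, and the 10 dividing cell markers to 368 to 529 CPM in CKO and 181 to 206 CPM in WT libraries, none at 0, with 9 of 10 called higher in each list. In spleen CD4 cells the dividing cell markers summed to 453, 221 and 259 CPM in CKO libraries 65, 68 and 72, against 211 to 235 CPM in the WT libraries, with 0 of 10 called. The 8 B cell markers summed to 17.1 to 21.8 CPM in CKO and 28.8 to 33.5 CPM in WT libraries of CD4 cells, and to 54.2 to 63.1 CPM in CKO and 31.9 to 41.0 CPM in WT libraries of CD8 cells. Of 7 tested B cell markers, 1 was called lower in CD4 cells and 1 higher in CD8 cells, and the eighth, Ighm, was listed at 0. Of 22 tested immediate early genes, which respond to cell handling among other signals, 6 were called lower and 1 higher in CD4 cells and 5 lower in CD8 cells. CKO 72 had the highest myeloid sum of its group in both populations. Its immediate early sum was also the highest of its group, at 10178 CPM in CD4 and 8095 CPM in CD8 cells. CKO 68 came next, at 9689 and 8004 CPM, and CKO 65 was the lowest, at 8170 and 6465 CPM. The WT libraries had 9486 to 10437 CPM in CD4 and 8784 to 9057 CPM in CD8 cells. The part of these markers in the member values was not tested.

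In thymus DP cells, no member was called, where edgeR called 0.00860% of 11634 genes lower and 0.0172% higher. None of the 10 had an unadjusted p under 0.05, where 7.07% of genes did. DESeq2 called 0 of the 10, where it called 0.0946% of genes lower and 0.0688% higher. The median log2 fold change of the 10 was −0.05, against 0.00 over all genes. Dnaja1 had 242, 223 and 238 CPM in CKO libraries 14, 17 and 23, against 247, 251 and 262 CPM in WT libraries 15, 18 and 24. Dnajb1 had 356, 336 and 365 CPM in the CKO libraries, against 395, 379 and 384 CPM in the WT libraries. These 2 genes lay below in CKO without overlap, where 5.90% of genes did. Their intervals were −0.25 to 0.03 for Dnaja1 and −0.26 to 0.01 for Dnajb1 on the log2 scale. Hsf1 was at −0.00, with an interval of −0.15 to 0.15. The 10 dividing cell markers summed to 2250 to 2492 CPM in CKO and 2461 to 3643 CPM in WT libraries of DP cells, and their part in these values was not tested.

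Hspe1 had 40.5, 40.5 and 40.6 CPM in DP CKO libraries 14, 17 and 23, against 32.0, 33.5 and 42.4 CPM in WT libraries 15, 18 and 24. WT 24 lay above the CKO libraries, so the groups overlapped (log2 fold change 0.17 ± 0.11, adjusted p = 0.785). Hspa8 and Hsph1 had their lowest and highest DP levels in WT libraries. Hspa8 had 779, 658 and 809 CPM in the CKO libraries and 623, 826 and 963 CPM in the WT libraries.

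In thymus CD4 SP cells, edgeR called 0 of the 10 members and 0% of 11839 genes in either direction, with 0 members and 2.58% of genes at an unadjusted p under 0.05, while DESeq2 called 0 members and 1 gene. The library CKO 14 stood apart. Hspa8 had 1795, 967 and 846 CPM in CKO libraries 14, 17 and 23, against 772, 934 and 1009 CPM in WT libraries 15, 18 and 24. Dnajb1 had 545, 185 and 266 CPM in the CKO libraries, against 286, 299 and 378 CPM in the WT libraries. Both genes were highest in CKO 14 of the 6 libraries.

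Dnaja1 and Hsp90aa1 went the other way in the same library. Dnaja1 had 69.3, 316 and 292 CPM in CKO libraries 14, 17 and 23, against 258, 259 and 252 CPM in the WT libraries. Hsp90aa1 had 56.7, 291 and 307 CPM in the CKO libraries, against 309, 287 and 286 CPM in the WT libraries. CKO 14 was the lowest of the 6 in both, and the DP library with the same number had 242 CPM of Dnaja1 and 303 CPM of Hsp90aa1. Without CKO 14 the log2 fold changes were −0.01 for Hspa8, −0.52 for Dnajb1, 0.23 for Dnaja1 and 0.01 for Hsp90aa1. With CKO 14 they were 0.41, 0.05, −0.19 and −0.43, and none was called either way. The fit without CKO 14 keeps CKO 17, whose DP-stage sum was 1645 CPM, against 4791 to 7467 CPM in the WT libraries. The 8 mature SP markers summed to 5316 CPM in CKO 17 and 3395 CPM in CKO 23, against 2098 to 3082 CPM in WT. Their part in these values was not tested.

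The other thymus CD4 SP members did not pass either. Hsph1 was at 0.25 ± 0.25 (adjusted p = 0.958), Hspe1 at 0.25 ± 0.23 (adjusted p = 0.958), Hspd1 at 0.03 ± 0.23 (adjusted p = 0.984) and Hsf1 at 0.01 ± 0.18 (adjusted p = 0.996). The 95% intervals ran from −0.34 to 0.84 for Hsph1 and from −0.29 to 0.79 for Hspe1. The test of the difference between the CD4 SP and DP effects called 0 of 10 members and 0% of 12216 genes, with edgeR and with DESeq2. With edgeR it had 0 members at an unadjusted p under 0.05, where 2.15% of genes were.

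**Figure D4:**
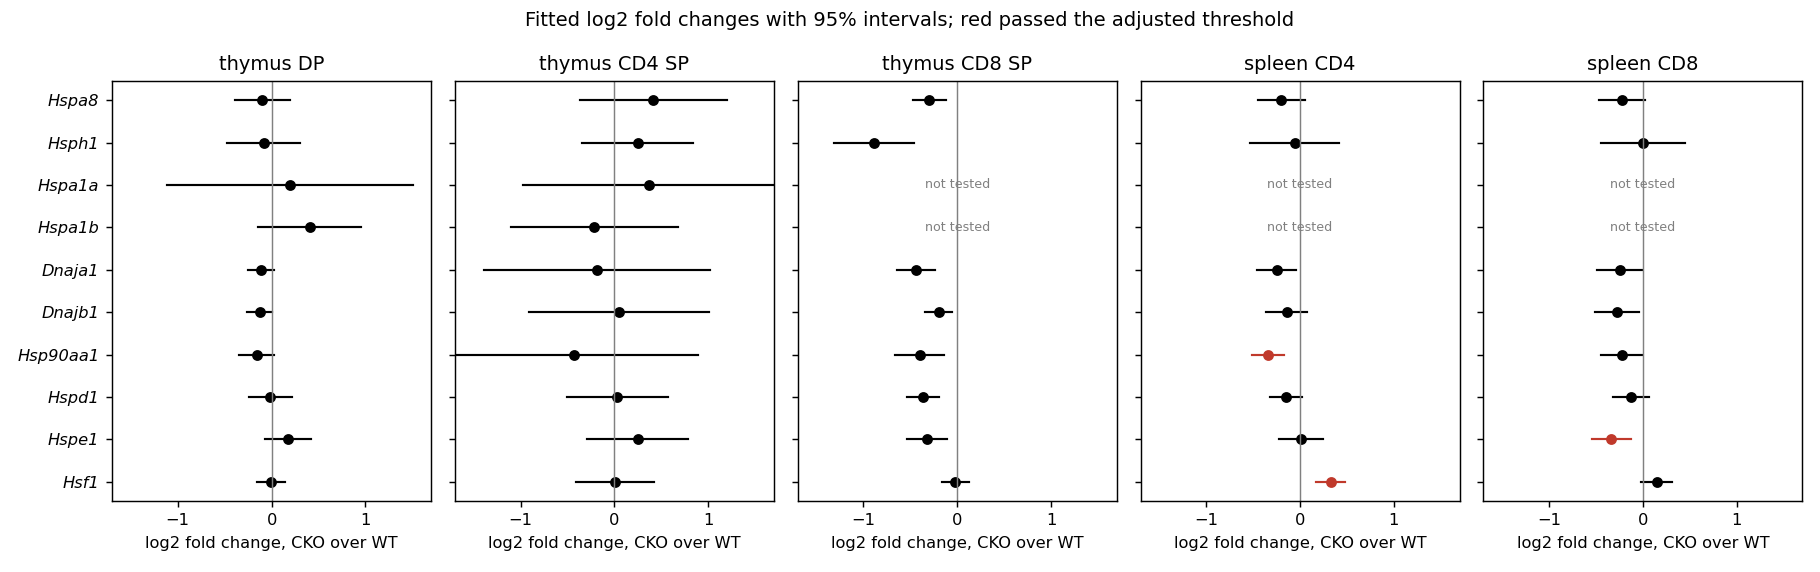
Fitted log2 fold change, CKO over WT (horizontal axis, positive means higher in CKO), with its 95% interval, for the 10 members (rows) in the 5 populations (panels); red marks an adjusted p at or under 0.05. The 3 red points are Hsp90aa1 and Hsf1 in spleen CD4 and Hspe1 in spleen CD8, and the widest intervals of the well-counted members are those of Hsp90aa1 and Dnaja1 in thymus CD4 SP.

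Levels also differed between populations of WT mice within a table. In spleen, 5 of the 8 tested members were higher in CD8 than in CD4 cells, where 15.3% of 14131 genes were called higher and 16.5% lower. Hspe1 differed the most, at 114, 88.9 and 95.2 CPM in CD8 libraries 67, 70 and 71, against 58.4, 51.7 and 67.4 CPM in the CD4 libraries with the same numbers. The CD8 libraries lay above all CD4 libraries, and the log2 difference, CD8 over CD4, was 0.74 ± 0.11 (adjusted p = 1.84e-04). Hspd1 followed at 0.30 ± 0.07 (adjusted p = 0.00527), and both were called with any 1 library left out.

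The other 3 called members rested on single libraries. Hsph1 was higher in CD8 cells by 0.40 ± 0.12 (adjusted p = 0.0185). Its levels in WT 67, 70 and 71 were 187, 136 and 162 CPM in CD8 libraries, against 138, 103 and 124 CPM in the CD4 libraries, which overlapped as groups, with the CD8 library the higher one within each number. The difference was 0.29 with an adjusted p of 0.0749 without the CD8 library of WT 67 and 0.29 with an adjusted p of 0.0757 without the CD4 library of WT 70. Hspa8 was higher by 0.25 ± 0.07 (adjusted p = 0.0205), and at an adjusted p of 0.0687 without the CD8 library of WT 67, 0.0914 without the CD4 library of WT 70 and 0.0528 without the CD8 library of WT 71. Hsf1 was higher by 0.19 ± 0.06 (adjusted p = 0.0335), and lost the call in 5 of the 6 fits without 1 library, with an adjusted p of up to 0.126. Dnaja1, Dnajb1 and Hsp90aa1 did not pass, with log2 differences of 0.05, 0.08 and −0.04. Among the genes around them, 7 of 14 of TRiC and prefoldin were called higher and 0 lower in CD8 cells, led by Cct7 at 0.35 ± 0.06 (adjusted p = 6.43e-04), Cct5 at 0.30 ± 0.06 (adjusted p = 0.00183) and Cct2 at 0.29 ± 0.06 (adjusted p = 0.00211). Of 10 tested myeloid markers, 8 were called lower in CD8 than in CD4 cells, and of 10 effector T cell markers 8 were called higher, and their part in the member values was not tested.

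In the thymus, 2 of 10 members were higher in CD4 SP than in DP cells of WT mice, where 21.7% of 11826 genes were called higher and 18.1% lower. Hspe1 had 45.0, 71.1 and 57.0 CPM in CD4 SP libraries 15, 18 and 24, against 32.0, 33.5 and 42.4 CPM in the DP libraries with the same numbers. The CD4 SP libraries lay above all DP libraries, at a log2 difference of 0.69 ± 0.16 (adjusted p = 0.00434).

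Hsf1 had 110, 117 and 112 CPM in CD4 SP libraries 15, 18 and 24, against 92.3, 92.8 and 91.2 CPM in the DP libraries. The groups did not overlap and the log2 difference was 0.31 ± 0.09 (adjusted p = 0.0144), which was lost without any 1 of the DP libraries (adjusted p = 0.0719 without WT 15, 0.0935 without WT 18 and 0.0755 without WT 24). Dnajb1 was the only member with CD4 SP libraries all below the DP libraries, where 24.8% of genes were, at −0.26 ± 0.11 (adjusted p = 0.0822), and was called without the CD4 SP library of WT 24, at −0.41 (adjusted p = 0.00366). In the same comparison 8 of 18 endoplasmic reticulum chaperone and stress genes were called higher and 0 lower, led by Hspa5, the Hsp70 of that compartment, at 0.87 ± 0.11 (adjusted p = 4.06e-05), Ddit3 at 0.94 ± 0.14 (adjusted p = 2.34e-04) and Hyou1 at 0.55 ± 0.09 (adjusted p = 3.18e-04). All 10 dividing cell markers were called lower and 14 of 20 tested immediate early genes higher in CD4 SP cells, and their part in the member values was not tested.

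Deviations of single libraries from their group mean were compared across members as a description. They share library, depth and composition, and in thymus CD4 SP they are set by CKO 14, so the 24 libraries of the other 4 populations are given. Over these, Pearson's r was 0.879 between Hsph1 and Hspa8, 0.882 between Hsph1 and Hspd1, 0.849 between Dnaja1 and Hsp90aa1 and 0.803 between Dnaja1 and Dnajb1. Hspd1 and its lid Hspe1, which share the promoter stretch shown above, were at 0.637. Other pairs were lower, and among the 7 well-counted chaperones r ran from 0.346 to 0.882. Hsf1 had r between 0.0921 and 0.467 with these 7, the highest with Hspe1. Hspe1 in turn was at 0.346 with Dnaja1 and 0.347 with Dnajb1, so the ranges overlap.

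Among 7767 other genes counted in all 3 tables with a mean of at least 5 CPM in each group, those whose deviations over all 30 libraries were closest to the mean of the 9 chaperones were Ubxn4 (r = 0.793), a membrane anchor of the segregase p97, the Hsp70 cochaperone St13 (r = 0.769), Tfg (r = 0.680), Snrpd3 (r = 0.674) and the Hsp90 cochaperone Ptges3 (r = 0.660). For Hsf1 they were Cables2 (r = 0.759), Col11a2 (r = 0.728), Ddit3 (r = 0.728), Cd68 (r = 0.725) and Pja1 (r = 0.705). Over the 24 libraries without thymus CD4 SP, Ubxn4 was at 0.860, St13 at 0.774, Tfg at 0.713, Snrpd3 at 0.701 and Ptges3 at 0.745. Of the genes named for Hsf1, Cables2 was at 0.919, Ddit3 at 0.769, Pja1 at 0.693, Col11a2 at 0.689 and Cd68 at 0.678. All were picked as the highest of the genes searched in these same libraries, so their r is a description and no test. The mean of the 9 chaperones includes the nearly silent Hspa1a and Hspa1b. Cd68 is also on the list of myeloid markers.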

How the data were processed

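The authors deposited raw read counts per gene in 3 tables, for thymus DP with CD4 SP, thymus CD8 SP, and spleen. Libraries were poly(A)-selected with a directional kit, per the labels' protocols. Per the submitters' processing notes, HISAT2 and HTSeq were used with GRCm38. Their versions and the strand setting were not given in the sources used here. How reads shared by near-identical genes were counted is not given either, which bears on Hspa8, Hsp90aa1, Hspd1, Hspe1, Hspa1a and Hspa1b.

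Every population was fitted alone over 6 libraries with edgeR 4.0.16 in R 4.3.3 (filterByExpr, TMM, quasi-likelihood test, Benjamini-Hochberg over all genes tested, called at 0.05), and differences between populations over 12. SEs came from the fold change and the root of F, and 95% intervals from the test's degrees of freedom. Nothing in the labels says that the 3 libraries of a group came from separate animals, so p-values measure only the spread between them. DESeq2 1.42.0, its size factors, no filter, a replicate block, sex as a covariate and fits without 1 library were alternatives. Members and lists were chosen with earlier results of these data known. All members are named, and of each other list at most the 3 called genes with the smallest adjusted p.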

Additional observations from a re-analysis of the deposited data

Results flagged for a closer look

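Hsph1 and Hspe1 had all CKO libraries on one side of the WT mean in one population and on the other side in another. For Hsph1 the log2 fold change was 0.25 in thymus CD4 SP and −0.89 in thymus CD8 SP cells. For Hspe1 it was 0.17 in DP and 0.25 in thymus CD4 SP cells, against −0.33 in thymus CD8 SP and −0.34 in spleen CD8 cells. Of these fold changes, only that of Hspe1 in spleen CD8 cells was called by edgeR. Those in DP and thymus CD4 SP cells came with overlapping CKO and WT libraries. In thymus CD4 SP, the lowest CKO library of Hsph1 had 107.2 CPM, against a WT mean of 106.7 CPM. The differences were not tested, since the populations stand in tables that were made separately.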

How the results depend on the processing

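Of 1328 values recomputed under alternatives, 1149 kept their direction and their side of the threshold (for counts, stayed within 1.5 times), 24 gained a call, 19 lost one, 48 counts moved and 88 changed sign, of which 0 were called before or after, and among 992 values of single members 861 kept direction and call. With DESeq2, DP cells had 19 genes called (3 with edgeR), thymus CD4 SP 1 (0), thymus CD8 SP 210 (17) and the spleen difference 636 (271 higher and 112 lower with edgeR), and 1 member was lower in thymus CD8 SP (0). Without the filter on low counts, 450 genes were called in thymus CD8 SP and 844 in the spleen difference, and members called lower numbered 7 in thymus CD8 SP (0 with it), 3 in spleen CD4 (1) and 5 in spleen CD8 (1), where 1.09%, 5.03% and 5.35% of all genes tested without it were called lower. For Hsph1 in thymus CD8 SP the log2 fold change was −0.88 without the filter and −0.89 with it. Its edgeR adjusted p was 1.54e-69 without the filter and 0.131 with it. The 7 calls in thymus CD8 SP thus came with smaller p-values at nearly the same fold changes. One fit over all 12 libraries called 0 genes in DP. With sex as a covariate, the thymus CD8 SP comparison rests on CKO 1 alone in the CKO group, so its calls are not given. The cause was not tested.

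Leaving out 1 library at a time, genes called numbered 1 to 40 for DP, 1 to 48 for thymus CD8 SP, 1085 to 2144 for spleen CD4 and 1315 to 2298 for spleen CD8 cells, 244 to 549 in the spleen difference, 0 to 6 in the thymus difference, 3714 to 4113 between WT spleen populations and 3607 to 5207 between WT thymus populations. Members called lower numbered 0 to 1 for thymus CD8 SP, 0 to 5 for spleen CD4, 0 to 3 for spleen CD8 cells and 0 to 1 between WT thymus populations. Members called higher ranged from 0 to 1 in spleen CD4, 2 to 4 between WT spleen populations and 1 to 2 between WT thymus populations.

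Of the sign changes, 79 of the 88 came from leaving out 1 library. In DP cells the log2 fold change ran from −0.11 to 0.11 for Hspd1, −0.044 to 0.029 for Hsf1, −0.24 to 0.89 for Hspa1a, −0.31 to 0.13 for Hsph1 and −0.25 to 0.048 for Hspa8. In thymus CD4 SP cells the range was −0.0086 to 0.62 for Hspa8, −0.31 to 0.69 for Hspa1a, −0.51 to 0.23 for Dnaja1, −0.52 to 0.34 for Dnajb1, −0.76 to 0.012 for Hsp90aa1, −0.12 to 0.20 for Hspd1, −0.064 to 0.053 for Hsf1 and −0.42 to 0.024 for Hspa1b. In thymus CD8 SP cells the range was −0.072 to 0.036 for Hsf1. In spleen CD4 cells the range was −0.47 to 0.12 for Hsph1 and −0.080 to 0.11 for Hspe1. In spleen CD8 cells the range was −0.34 to 0.17 for Hsph1. For the spleen difference the range was −0.27 to 0.47 for Hsph1, −0.052 to 0.10 for Hspd1, −0.15 to 0.16 for Hspa8, −0.13 to 0.13 for Dnaja1 and −0.26 to 0.017 for Dnajb1. For the thymus difference the range was −0.58 to 0.58 for Hspa1a, −0.098 to 0.040 for Hsf1, −0.14 to 0.22 for Hspd1, −0.10 to 0.23 for Hspe1, −0.41 to 0.35 for Dnaja1, −0.38 to 0.42 for Dnajb1 and −0.61 to 0.18 for Hsp90aa1. Between WT spleen populations the range was −0.076 to 0.0040 for Hsp90aa1. Between WT thymus populations the range was −0.00030 to 0.31 for Hspa8, −0.019 to 0.030 for Dnaja1, −0.031 to 0.20 for Hspd1, −0.14 to 0.99 for Hspa1a and −0.27 to 0.17 for Hsph1. Of the other 9, Hsf1 came to −0.012 in thymus CD4 SP cells with all 12 libraries and to 0.035 in thymus CD8 SP cells with sex as a covariate. DESeq2, or its size factors, put Dnaja1 at 0.0079 in the spleen difference and Hsf1 at 0.011 in the thymus difference, where Hsf1 was also at 0.015 without the filter. With the replicate block, Hspa1a came to −0.20 and Hspd1 to −0.014 in the thymus difference.

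The labels do not say that equal numbers mark 1 animal. Over genes, deviations of same-numbered libraries correlated at 0.0393 to 0.643 in spleen, 0.0512 to 0.188 in thymus CD8 SP and −0.280 to 0.285 in DP with thymus CD4 SP. With the number as a replicate block, 1083 genes were called in the spleen difference, 18 in thymus CD8 SP (0 members), and 1 member, Dnajb1, was called lower between WT thymus populations (log2 difference −0.27, adjusted p = 0.0442); the block changed no other member call. Hspa1a and Hspa1b had 0 to 14 counts in spleen libraries and did not pass the filter there.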
